A study of Mus musculus with 20 samples.

Results

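The NF-kB subunit genes Nfkb2, Relb, Rel and Rela were followed across murine pre-B cells in which the RAG recombinase makes, or cannot make, DNA double strand breaks. A probe set, the group of short probes with which the array reads a transcript, was taken when its annotation named exactly 1 of these symbols. This gave 5 of the 44200 probe sets measured, for 4 of the 17944 genes named by probe sets with 1 gene. Nfkb2 had 2 probe sets and the other genes had 1 each. All 5 held a value on all 20 arrays.

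The cells came in 2 sets, 5 groups of cell lines and 2 groups of marrow cells. The lines were pre-B cells transformed by v-abl, the oncogenic kinase of the Abelson virus, and every group had been exposed to 3 uM STI571, an inhibitor of that kinase, for 48 hours. They comprised 2 Artemis- and ATM-deficient lines with 2 technical arrays each, 3 Artemis-deficient samples expressing dominant negative IkB (IkB-DN), 3 Artemis-deficient samples, 3 wild type samples, and 3 RAG-2-deficient samples that the study used as controls. The marrow set held cells described as purified pre-B cells, 2 samples from Artemis-deficient mice and 2 from RAG-1-deficient mice as controls. All of these mice carried an IgH transgene. The study asked which genes respond to RAG-made breaks. Artemis opens the hairpin ends that RAG leaves, so breaks persist without it, ATM is the kinase that signals such breaks, and RAG-1 and RAG-2 are both needed to cut. The sources used here give neither the ages of the mice nor the construct that drives IkB-DN.

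NF-kB factors are dimers of a small family of related proteins that share the Rel homology domain, through which they bind DNA and each other. In the canonical pathway, IkB proteins hold dimers such as those of RelA and c-Rel in the cytoplasm until the IKK complex marks the IkB for degradation. In the alternative pathway, p100, the long product of Nfkb2, is trimmed to p52, which pairs mainly with RelB. In pre-B cells NF-kB bears on survival and on the immunoglobulin light chain locus.

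The arrays of each set had nearly the same median signal, 26.8 to 27.7 array units in lines and 46.9 to 47.8 in marrow. Of 12 measured pre-B markers, Rag1 and Rag2 among them, all 12 reached the array median on every array in 6 of the 7 groups. In RAG-2-deficient lines 11 did, all but Rag2 itself. All 7 measured myeloid markers also reached the array median on every array of both marrow groups. Their summed signal was 45600 to 52000 in Artemis-deficient marrow, where the 12 pre-B markers summed to 23500 to 32100. In RAG-1-deficient marrow it was 27500 to 39500, and that of the pre-B markers 41600 to 46800. Most of the myeloid sum was S100a8 (17300 to 18800 and 11800 to 17800) and S100a9 (15200 to 17400 and 9930 to 13800). Sums over different probe sets do not show which cell type prevails. The Atm probe set 1421205_at read 37.7 to 39.7 in Artemis- and ATM-deficient, 79.6 to 116 in Artemis-deficient and 190 to 195 in RAG-2-deficient lines. The second, 1428830_at, read 107 to 108 in Artemis- and ATM-deficient and 122 to 173 in Artemis-deficient lines, a difference that was not called (adjusted p = 0.338 in limma). The Rag1 probe set read 1230 to 1800 in Artemis-deficient marrow and 5360 to 6680 in RAG-1-deficient marrow, so it gives no check of the deletion. The Rag2 probe set, at 19.8 to 327 in RAG-2-deficient lines, gives none either. The title of wild type sample 3 holds the letters ATM, although its source is wild type. At 1421205_at, Atm stood at 164 to 170 in the 3 wild type samples. The titles of all 3 RAG-2-deficient samples hold the letters Bcl, which the labels do not explain, and whether these controls carry a further change, which would enter every comparison with them, was not tested. Replicates correlated at r = 0.976 to 0.983 over the probe sets kept in IkB-DN samples, at 0.902 to 0.947 in the other groups of lines, and at 0.982 and 0.984 between the technical arrays of 1 line. The labels do not say whether the IkB-DN samples came from separate lines, and where they did not, their spread is not one between lines. The same is open for the RAG-2-deficient samples, whose titles share a stem, and for the other wild type samples, whose titles share one too. The letters INV in the title of 1 Artemis-deficient sample, and CJ in those of all Artemis- and ATM-deficient arrays, were not followed up. All 14 line samples were fitted in 1 model, where each group adds to the residual spread of a probe set. The IkB-DN replicates thus bear on p-values of every comparison of lines, also of those without this group. With that group left out, calls over all probe sets went from 252 to 82 in Artemis-deficient over RAG-2-deficient lines. They went from 182 to 42 in wild type over RAG-2-deficient and from 110 to 13 in Artemis-deficient over wild type lines.

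Because dimers of these proteins act on kB sites, also in promoters of their own family, the start-site windows of the members are shown with the letters that match the kB consensus on either strand in capitals. The windows are RefSeq's for GRCm38.p6 and run from 250 bases before to 50 bases after an annotated start, and the table has windows for Nfkb2, Rel and Rela. The first 2 of 3 Nfkb2 windows lie at chr19:46304487-46304786 and chr19:46305445-46305744 on the plus strand, Rel's at chr11:23770920-23771219 on the minus strand and Rela's at chr19:5637291-5637590 on the plus strand.
Nfkb2 window 1: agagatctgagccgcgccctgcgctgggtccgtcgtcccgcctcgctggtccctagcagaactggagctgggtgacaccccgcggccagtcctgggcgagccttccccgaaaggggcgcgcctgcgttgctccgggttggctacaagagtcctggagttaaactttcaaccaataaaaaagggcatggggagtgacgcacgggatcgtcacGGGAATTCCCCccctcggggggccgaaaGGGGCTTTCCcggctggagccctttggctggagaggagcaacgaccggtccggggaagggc
Nfkb2 window 2: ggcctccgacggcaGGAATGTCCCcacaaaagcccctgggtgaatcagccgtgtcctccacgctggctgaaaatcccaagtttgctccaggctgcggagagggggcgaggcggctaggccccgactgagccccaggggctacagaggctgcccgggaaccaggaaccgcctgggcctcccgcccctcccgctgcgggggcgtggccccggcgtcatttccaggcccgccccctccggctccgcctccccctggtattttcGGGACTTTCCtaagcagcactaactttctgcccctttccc
Rel window: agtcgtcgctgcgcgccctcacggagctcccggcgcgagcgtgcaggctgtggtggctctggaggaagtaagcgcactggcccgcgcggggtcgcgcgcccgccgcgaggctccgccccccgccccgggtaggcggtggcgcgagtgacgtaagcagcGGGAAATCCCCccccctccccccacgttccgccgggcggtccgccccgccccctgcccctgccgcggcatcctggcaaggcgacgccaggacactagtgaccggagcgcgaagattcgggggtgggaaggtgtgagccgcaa
Rela window: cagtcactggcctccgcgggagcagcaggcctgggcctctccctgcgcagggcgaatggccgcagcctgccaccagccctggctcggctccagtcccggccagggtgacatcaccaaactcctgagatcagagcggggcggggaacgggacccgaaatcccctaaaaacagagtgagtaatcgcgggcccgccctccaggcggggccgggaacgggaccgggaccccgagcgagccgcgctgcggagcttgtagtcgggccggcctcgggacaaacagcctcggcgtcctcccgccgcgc
Window 1 of Nfkb2 held overlapping matches at bases 212 to 222 and another at bases 240 to 249. Window 2 held matches at bases 15 to 24 and 261 to 270, and the second of these lies in the overlapping window 3 too. The Rel window held overlapping matches at bases 159 to 169, and the Rela window held no match. Of all 32851 windows, 8.46% held the consensus on either strand. A match is a string of letters and not a shown binding site.

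Nfkb2 and Relb differed between the groups of lines, and for Rel and Rela the test over all groups was not passed. In limma's moderated F test over the 5 groups, 3 of the 5 member probe sets passed at an adjusted p below 0.05, against 9.31% of all 21809 tested. Nfkb2 ranked 11 (1425902_a_at, F = 68, adjusted p = 6.43e-05) and 1010 (1429128_x_at, F = 9.3, adjusted p = 0.0245), and Relb ranked 12 (F = 67.6, adjusted p = 6.43e-05). Rela had F = 4.1 (adjusted p = 0.125) and Rel F = 0.297 (adjusted p = 0.916). Levels below are log2 of the signal plus 6, which draws in fold changes at low signals. Where samples are said not to overlap, the groups hold only 2 or 3 samples each. The share of all probe sets without such overlap was not counted.

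**Figure D1:**
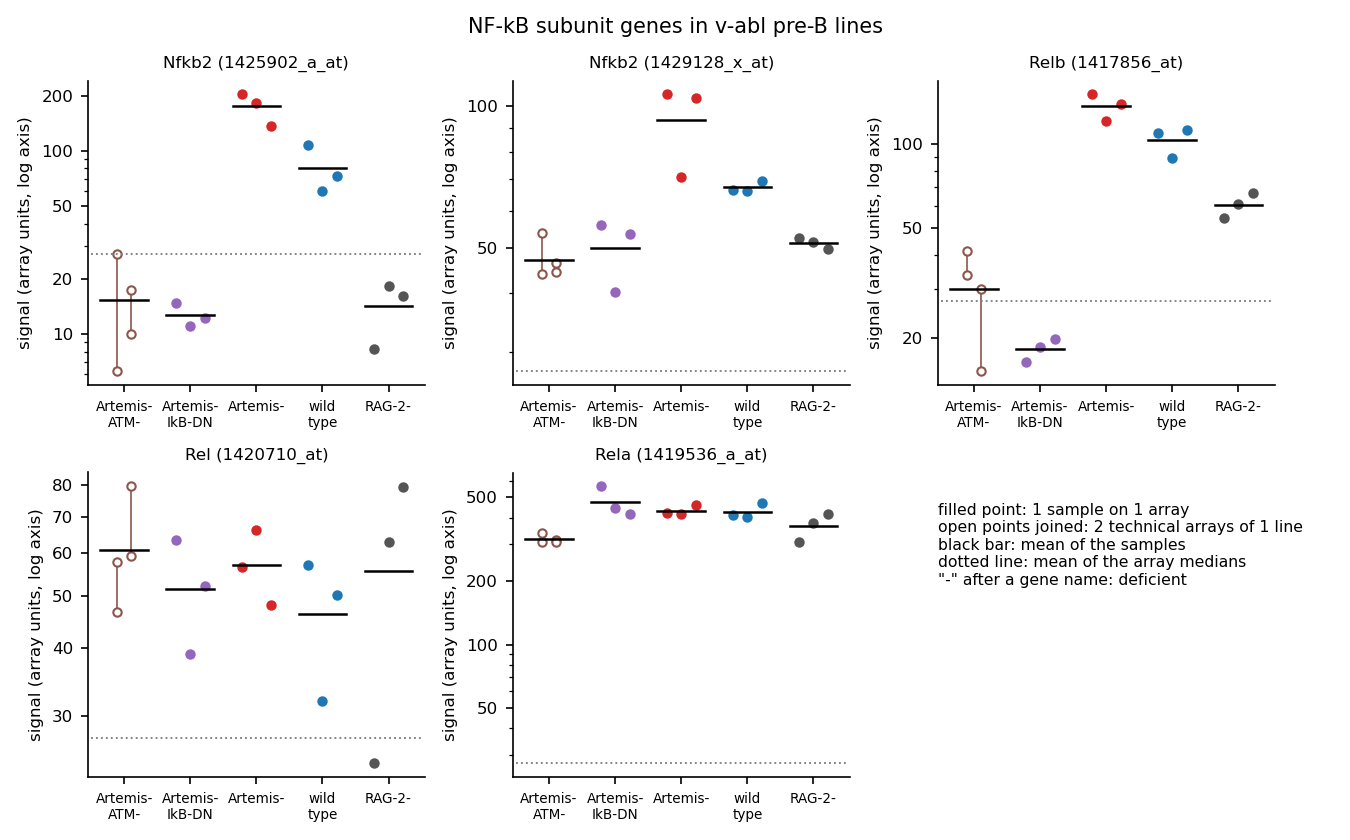
Signal in array units on log axes for the 5 member probe sets in 14 line samples, by group, with Artemis- and ATM-deficient lines at the left and RAG-2-deficient lines at the right. Points are arrays, joined where 2 technical arrays share a line, bars are group means and the dotted line is the mean array median. Artemis-deficient and wild type samples stand above the other groups for both Nfkb2 probe sets and Relb, while the groups overlap for Rel.

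Nfkb2, the source of p100 and p52, had its highest signals in Artemis-deficient samples, the next in wild type samples, and low signals in the other 3 groups of lines. At 1425902_a_at, which by its suffix matches several transcripts of 1 gene, the technical arrays read 27.2 and 6.24 in Artemis- and ATM-deficient line 1 and 10.0 and 17.4 in line 2. The IkB-DN samples read 14.8, 11 and 12.2. The Artemis-deficient samples read 203, 183 and 137, the wild type samples 108, 60.3 and 72.7, and the RAG-2-deficient samples 8.31, 18.3 and 16.1. The groups without a break, without ATM or with IkB-DN overlapped, and every array in them lay below its own median signal. The probe set passed the filter on low signals only through the Artemis-deficient and wild type samples. Wild type samples stood between the low groups and the Artemis-deficient samples, with no overlap on either side. The mean level was 4.303 ± 0.043 in Artemis- and ATM-deficient lines (SD, n = 2), 4.22 ± 0.15 in IkB-DN (SD, n = 3), 7.48 ± 0.29 in Artemis-deficient (SD, n = 3), 6.39 ± 0.40 in wild type (SD, n = 3) and 4.303 ± 0.408 in RAG-2-deficient samples (SD, n = 3).

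The second Nfkb2 probe set, 1429128_x_at, whose suffix marks probes that may also match other sequences, gave the same order at the top with smaller differences. It read 53.8 and 43.9 in Artemis- and ATM-deficient line 1 and 44.4 and 46.3 in line 2, and 56.0, 40.3 and 53.4 in IkB-DN samples. The Artemis-deficient samples read 106, 70.6 and 104, the wild type samples 66.4, 66.0 and 69.4, and the RAG-2-deficient samples 52.5, 51.5 and 49.6. Artemis-deficient samples lay above all others, though the lowest of them was close to the highest wild type sample.

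Relb, whose product is the usual partner of p52, was also highest in Artemis-deficient samples, but its low groups were split. Its probe set 1417856_at read 41.1 and 33.7 in Artemis- and ATM-deficient line 1 and 15.2 and 30.1 in line 2. The IkB-DN samples read 16.4, 18.6 and 19.9, the Artemis-deficient samples 151, 121 and 139, the wild type samples 110, 88.8 and 112, and the RAG-2-deficient samples 54.1, 60.8 and 66.7. With the technical arrays averaged, no 2 groups overlapped, in the order Artemis-deficient, wild type, RAG-2-deficient, Artemis- and ATM-deficient, IkB-DN. None of the 4 steps between neighbours in this order passed at an adjusted p below 0.05 in limma, although the samples did not overlap at any of them. Their adjusted p-values were 0.425, 0.104, 0.0619 and 0.151, and the unadjusted p was below 0.05 for 3 of the 4. Over all probe sets tested, it was below 0.05 for 12.3%, 12.4%, 11.7% and 23.2% in the same comparisons. The last step rests on averaged arrays, since the array of line 2 that read 15.2 lay below every IkB-DN sample. The mean level was 5.11 ± 0.46 in Artemis- and ATM-deficient lines (SD, n = 2), 4.60 ± 0.11 in IkB-DN (SD, n = 3), 7.15 ± 0.16 in Artemis-deficient (SD, n = 3), 6.77 ± 0.18 in wild type (SD, n = 3) and 6.05 ± 0.14 in RAG-2-deficient samples (SD, n = 3).

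Rela, which encodes the main activating subunit of the canonical pathway, had signals between 305 and 563 on all line arrays. Probe set 1419536_a_at read 305, 340, 314 and 306 on the 4 arrays of Artemis- and ATM-deficient lines and 563, 444 and 414 in IkB-DN samples. The Artemis-deficient samples read 420, 416 and 460, the wild type samples 410, 404 and 468, and the RAG-2-deficient samples 306, 379 and 416. The lowest group was Artemis- and ATM-deficient, which overlapped RAG-2-deficient samples and no other group.

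Rel encodes c-Rel, the canonical subunit that is prominent in lymphocytes. Probe set 1420710_at read 57.8, 46.7, 59.1 and 79.6 on the 4 arrays of Artemis- and ATM-deficient lines and 63.3, 39.0 and 52.1 in IkB-DN samples. The Artemis-deficient samples read 56.6, 66.0 and 48.1, the wild type samples 56.9, 32 and 50.1, and the RAG-2-deficient samples 24.5, 62.9 and 79.5. Every pair of groups overlapped, and the RAG-2-deficient samples spanned the widest range. RAG-2-deficient sample 1 sets the sign of several Rel comparisons, for example 0.15 ± 0.34 (log2 ± SE) for Artemis-deficient over RAG-2-deficient lines with it and -0.30 without it.

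The contrast of persistent breaks with no breaks called Nfkb2 and Relb among the members. In Artemis-deficient against RAG-2-deficient lines, 3 of the 5 member probe sets rose, against 0.694% of the 21894 probe sets tested that were higher. Nfkb2 rose by 3.17 ± 0.25 at 1425902_a_at (log2 ± SE, adjusted p = 6.8e-05 in limma). Every RAG-2-deficient array was below its median there, so the size depends on the pseudocount and was 2.15 at 32 and 3.57 at 1. It was called in all 25 alternatives, the fit without a filter among them. Relb rose by 1.10 ± 0.18 (2.14-fold, adjusted p = 0.0133 in limma) and the second Nfkb2 probe set by 0.78 ± 0.17 (1.71-fold, adjusted p = 0.049 in limma). Rela differed by 0.24 ± 0.14 (95% interval -0.065 to 0.55, adjusted p = 0.493 in limma), and Rel by 0.15 ± 0.34 (95% interval -0.59 to 0.89, adjusted p = 0.895 in limma). For Rela, the lowest Artemis-deficient and the highest RAG-2-deficient sample were nearly tied, at levels of 8.721 and 8.720. The call of 1429128_x_at was lost in 20 of 25 alternative settings, and that of Relb in 3, among them the one without RAG-2-deficient sample 1 (1.03, adjusted p = 0.0657).

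Wild type lines make breaks that can be repaired. In wild type against RAG-2-deficient lines, 1 of the 5 member probe sets rose, against 0.43% of all tested that were higher. This was Nfkb2 at 1425902_a_at, by 2.09 ± 0.25 (log2 ± SE, adjusted p = 0.00241 in limma), between 1.26 and 2.44 at pseudocounts of 32 and 1. This call was lost when only these 2 groups were fitted (adjusted p = 0.111). Relb differed by 0.72 ± 0.18 (adjusted p = 0.104) and 1429128_x_at by 0.36 ± 0.17 (adjusted p = 0.415), both higher in all 3 wild type samples. Artemis-deficient set directly against wild type lines gave no member call, with 0.502% of all probe sets called and an unadjusted p below 0.05 for 2 of the 5 in limma, both of Nfkb2, and for 12.3% of all. At 1425902_a_at the difference was 1.08 ± 0.25 (2.12-fold, 95% interval 0.53 to 1.63, adjusted p = 0.0892), and it was called at a pseudocount of 32 (0.89, adjusted p = 0.0377). Relb differed by 0.38 ± 0.18 (95% interval -0.013 to 0.77, adjusted p = 0.425).

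**Figure D2:**
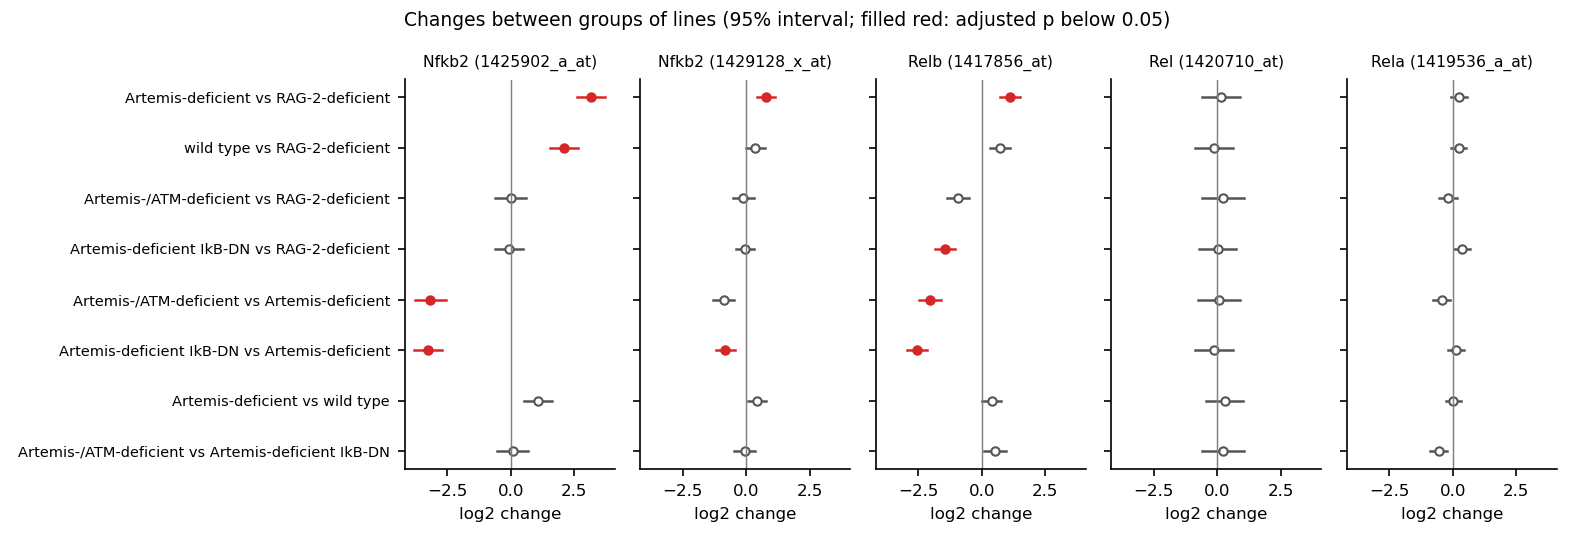
Log2 change of each member probe set in 8 comparisons of lines, first-named group over second, with 95% intervals. Filled red points passed at an adjusted p below 0.05. Nfkb2 and Relb lie to the left of 0 in Artemis- and ATM-deficient and in IkB-DN lines against Artemis-deficient lines, and the intervals of Rel include 0 in all 8.

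Loss of ATM in cells with persistent breaks went with low Nfkb2 and Relb. In Artemis- and ATM-deficient against Artemis-deficient lines, 2 of the 5 member probe sets fell, against 0.215% of the 21896 tested that were lower. Nfkb2 at 1425902_a_at changed by -3.17 ± 0.28 (log2 ± SE, adjusted p = 0.000355 in limma). With every array of the Artemis- and ATM-deficient lines below its median, this was -2.13 and -3.60 at pseudocounts of 32 and 1. Relb changed by -2.04 ± 0.20 (4.11-fold lower, adjusted p = 0.000841 in limma, rank 8). The second Nfkb2 probe set differed by -0.89 ± 0.19 (adjusted p = 0.0895) and Rela by -0.44 ± 0.16 (adjusted p = 0.359), each without overlap of samples. Rel differed by 0.074 ± 0.38 (95% interval -0.75 to 0.90, adjusted p = 0.979). The summed signal of the 7 myeloid markers was 230 to 932 in Artemis- and ATM-deficient and 137 to 353 in Artemis-deficient samples, and its part in these differences was not tested. The Relb call was lost when only these 2 groups were fitted (adjusted p = 0.135).

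Against RAG-2-deficient lines, the Artemis- and ATM-deficient lines gave no member call, with 0.695% of all probe sets called and 1 of the 5 at an unadjusted p below 0.05 in limma, as were 11.7% of all. Nfkb2 at 1425902_a_at differed by 0.00 ± 0.28 (95% interval -0.62 to 0.62). Relb differed by -0.94 ± 0.20 (95% interval -1.38 to -0.50, adjusted p = 0.0619), lower in both lines, and it was called without Artemis- and ATM-deficient line 1 (-1.26, adjusted p = 0.0282).

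The IkB-DN samples had low Nfkb2, and the lowest Relb of all groups. Against Artemis-deficient lines, 3 of the 5 member probe sets fell, against 1.01% of the 21862 tested that were lower. Relb changed by -2.55 ± 0.18 (log2 ± SE, 5.87-fold lower, adjusted p = 0.00012 in limma) and ranked 1 by p among all probe sets. Every IkB-DN array was below its median for Relb too. The size of the Relb change ran from -2.835 to -1.744 over the alternative settings other than left-out samples. Nfkb2 at 1425902_a_at changed by -3.26 ± 0.25 (adjusted p = 0.00012), which was -2.19 and -3.67 at pseudocounts of 32 and 1, since every IkB-DN array was below its median. At 1429128_x_at it changed by -0.82 ± 0.17 (1.77-fold lower, adjusted p = 0.0293). That last call was lost in 6 of 24 alternatives, for example without Artemis-deficient sample 1 (-0.73, adjusted p = 0.136). Rela differed by 0.12 ± 0.14 (95% interval -0.19 to 0.43) and Rel by -0.14 ± 0.34 (95% interval -0.88 to 0.60). Some myeloid markers moved with this contrast. The summed signal of 7 was 637 to 770 in IkB-DN, 137 to 353 in Artemis-deficient and 104 to 167 in RAG-2-deficient samples. On every array, 4, 2 and 1 of the 7 were at or above the array median. Lyz2 read 84.6 to 126 in IkB-DN and 1.22 to 8.11 in Artemis-deficient samples, and Itgam 389 to 452 in IkB-DN and 48.7 to 225 in Artemis-deficient samples. Csf1r read 119 to 167 in IkB-DN and 56.3 to 100 in Artemis-deficient samples, and Elane 31.3 to 55.9 and 17.8 to 29.9. These 4 were higher in IkB-DN samples without overlap. S100a8 (0.671 to 5.72 and 0.48 to 4.33) and Mpo (1.4 to 5.2 and 0.326 to 7.24) overlapped at low signals. S100a9 was at most 1.01 in IkB-DN and empty in Artemis-deficient samples. The part of the myeloid markers in the falls of Nfkb2 and Relb was not tested.

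Against RAG-2-deficient lines, 1 of the 5 member probe sets fell in IkB-DN samples, against 4.89% of all tested that were lower. Relb changed by -1.45 ± 0.18 (2.74-fold lower, adjusted p = 0.000998 in limma), and this call was kept in all 24 alternatives, between -1.67 and -0.88. Nfkb2 differed by -0.083 ± 0.25 (95% interval -0.63 to 0.47) at 1425902_a_at (adjusted p = 0.872). Rela differed by 0.36 ± 0.14 (95% interval 0.055 to 0.67, adjusted p = 0.127).

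When Artemis- and ATM-deficient lines were set against IkB-DN lines, no member was called, with 6.7% of all probe sets called and 2 of the 5 at an unadjusted p below 0.05 in limma, as were 23.2% of all. Relb differed by 0.51 ± 0.20 (95% interval 0.072 to 0.95, adjusted p = 0.151) and Rela by -0.56 ± 0.16 (95% interval -0.91 to -0.22, adjusted p = 0.0537), each without overlap. Nfkb2 at 1425902_a_at differed by 0.083 ± 0.28 (95% interval -0.53 to 0.70).

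**Figure D3:**
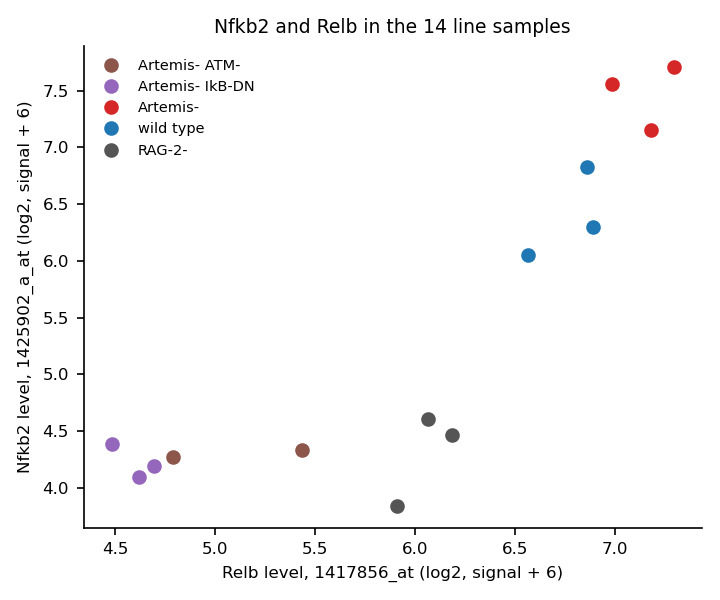
Level of Nfkb2 (1425902_a_at) against level of Relb (1417856_at), both log2 of the signal plus 6, in 14 line samples coloured by group. Artemis-deficient and wild type samples form the upper right, while the 3 low groups lie between 3.84 and 4.60 for Nfkb2 and spread along Relb from 4.48 in IkB-DN to 6.18 in RAG-2-deficient samples.

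In the plot of both levels, the low groups lie at the bottom of the Nfkb2 range, with every array below its median. Nfkb2 in the 8 samples of the 3 low groups lay between 3.84 and 4.60. Relb in the same 8 samples lay between 4.48 and 6.18, with RAG-2-deficient samples at the upper end, and neighbouring groups there were not called apart (adjusted p = 0.0619 and 0.151). At the other Nfkb2 probe set, Artemis- and ATM-deficient lines lay below RAG-2-deficient samples without overlap (-0.11 ± 0.19, adjusted p = 0.876).

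Other genes of the pathway were counted on lists of inhibitors, kinases and adaptors, receptors, targets and protein partners, each gene read at its brightest probe set on average. The lists were written with earlier results of these data known. Their counts here and in marrow therefore describe these genes and cannot show an excess over all genes. In Artemis-deficient against RAG-2-deficient lines, 2 of 7 genes of the IkB family rose and none fell (median log2 change 0.62), with 78 higher and 32 lower among all 9876 genes tested (median -0.001). They were Nfkbie, which encodes the inhibitor IkB epsilon, with 2.04 ± 0.17 (log2 ± SE, adjusted p = 0.000115 in limma), and Nfkbid, which encodes a nuclear IkB, with 2.28 ± 0.36 (adjusted p = 0.00971 in limma). Of 23 genes of the IKK and upstream list 2 rose (median 0.16). These were Tnfaip3, the ubiquitin-editing brake A20, with 1.68 ± 0.25, and Map3k8, a kinase upstream of MAP kinases, with 1.58 ± 0.31. Of 18 listed NF-kB targets 6 rose (median 0.37). The 4 with the smallest adjusted p were the interleukin-12 subunit gene Il12a (2.23 ± 0.33), the migration gene Swap70 (1.39 ± 0.21), the AP-1 subunit gene Junb (0.93 ± 0.17) and the adhesion gene Icam1 (0.74 ± 0.14). Of 18 partners and modifiers of the subunits none was called in limma (median -0.11), and 1 had an unadjusted p below 0.05, as did 1399 of all 9876 genes. The same held for the 3 measured receptors that feed the alternative pathway, none called and 1 at an unadjusted p below 0.05 (median -0.14).

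In Artemis- and ATM-deficient against Artemis-deficient lines, 1 of 7 IkB family genes fell (median -0.57), with 8 higher and 25 lower among all 9875 genes. This was Nfkbie, with -2.15 ± 0.19 (log2 ± SE, adjusted p = 0.000355 in limma). Of 18 targets 4 fell (median -0.43). They were the survival kinase gene Pim2 (-3.97 ± 0.62), the lymphotoxin gene Ltb (-5.05 ± 0.81), Swap70 (-1.43 ± 0.24) and the adhesion receptor gene Cd44 (-4.61 ± 0.80). For Ltb in line 2 and for Cd44 in line 1 of the ATM-deficient group, 1 of the 2 technical arrays was empty and the fit used the other. No gene of the IKK list was called in limma among 24, where 10 had an unadjusted p below 0.05 (median -0.30), as did 1019 of all 9875 genes. The list includes Atm, which is targeted in these lines, so the count is not free of the genotype.

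In IkB-DN against Artemis-deficient lines, 3 of 7 IkB family genes fell (median -1.17), with 127 higher and 110 lower among all 9858 genes. These were Nfkbie (-2.22 ± 0.17), Nfkbid (-2.33 ± 0.36) and Nfkbia, the gene of IkB alpha (-1.17 ± 0.18). Of 24 genes of the IKK list 4 fell (median -0.025), among them the ubiquitin ligase gene Birc3 (-1.14 ± 0.20), the deubiquitinase gene Cyld (-0.87 ± 0.17) and the adaptor gene Tank (-1.22 ± 0.27). The fourth was Pidd1, a death-domain gene (-3.54 ± 0.42), for which 1 IkB-DN and 1 Artemis-deficient sample were empty and left out of the fit. Of 18 targets 4 fell (median -0.54), Swap70 (-1.33 ± 0.21), Pim2 (-3.42 ± 0.55), the activation antigen gene Cd69 (-1.97 ± 0.35) and Il12a (-1.76 ± 0.33). The Artemis-deficient samples serve in all of these comparisons, which are therefore not independent of each other.

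By the correlation of levels over the 14 line samples among 9440 genes, the genes most like 1429128_x_at of Nfkb2 were Nfkbie (r = 0.924), Sdhaf1 (r = 0.915) and Zfp275 (r = 0.912). For 1425902_a_at, added after its values were seen, they were Nfkbie (r = 0.972), Nfkbid (r = 0.950) and Cyba (r = 0.936). Relb was most like Garre1 (r = 0.893), Csf2ra (r = 0.874) and Hax1 (r = 0.871), with no IkB gene among its nearest 3. Rela was most like Klhdc3 (r = 0.896), Jun (r = 0.895) and Cep41 (r = 0.879), and Rel most like Fem1a (r = 0.877), Thra (r = 0.840) and Nop53 (r = 0.817). These values describe 14 samples that share groups and arrays, and they carry no test.

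In the marrow samples described as pre-B cells, Nfkb2 and Relb had higher signals without Artemis than without RAG-1, and no member passed the test. Nfkb2 at 1425902_a_at read 260 and 183 in Artemis-deficient and 60.7 and 140 in RAG-1-deficient samples. At 1429128_x_at it read 230 and 124 in Artemis-deficient and 76.8 and 127 in RAG-1-deficient samples, so the groups overlapped there. Relb read 108 and 112 in Artemis-deficient and 51.0 and 76.3 in RAG-1-deficient samples, without overlap. Rela read 828 and 879 in Artemis-deficient and 613 and 718 in RAG-1-deficient samples, also without overlap, and Rel read 63.3 and 55.6 in Artemis-deficient and 61.2 and 59.1 in RAG-1-deficient samples, where the groups overlapped. None of the 5 was called in limma, against 2.57% of the 19512 tested, and 2 had an unadjusted p below 0.05, as did 16.9% of all. On the scale of log2 of the signal plus 11, Nfkb2 at 1425902_a_at differed by 1.14 ± 0.37 (log2 ± SE, 2.21-fold, 95% interval 0.28 to 2.01, adjusted p = 0.173) and Relb by 0.71 ± 0.28 (1.64-fold, 95% interval 0.070 to 1.36, adjusted p = 0.251). Rela differed by 0.36 ± 0.17 (adjusted p = 0.341) and Rel by -0.016 ± 0.27 (adjusted p = 0.985). With 2 samples a group, the Nfkb2 difference ran from 0.61 to 1.68 as single samples were left out. The share of all probe sets whose marrow groups did not overlap was not counted.

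**Figure D4:**
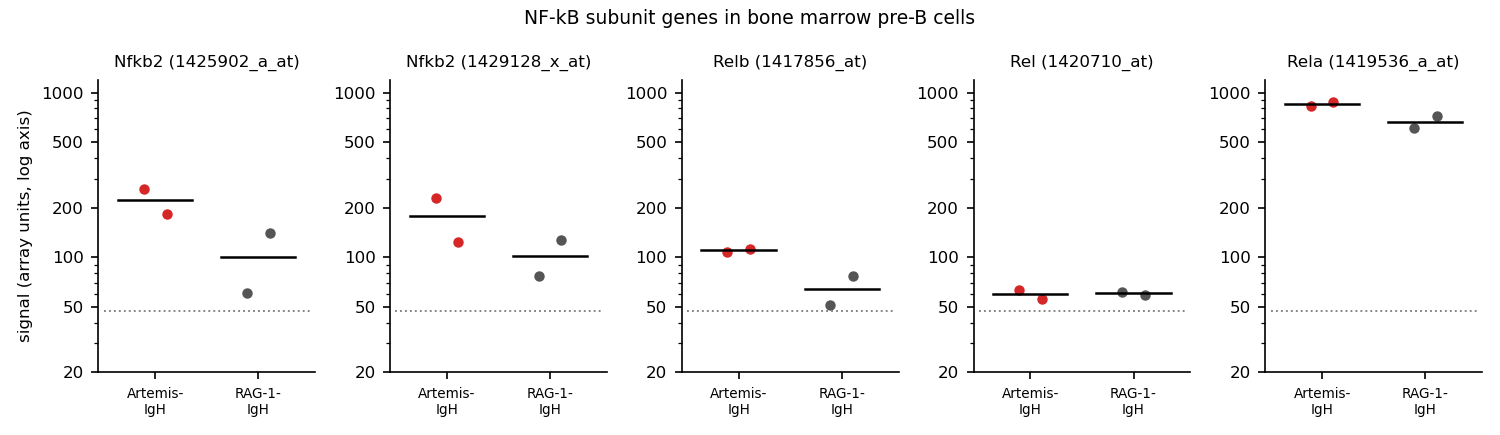
Signal in array units on log axes for the 5 member probe sets in 2 Artemis-deficient (left) and 2 RAG-1-deficient (right) marrow samples, with bars at the group means and the dotted line at the mean array median. Artemis-deficient samples lie above RAG-1-deficient ones for 1425902_a_at of Nfkb2, Relb and Rela, and the groups overlap for 1429128_x_at and Rel. No member was called, and the share of all probe sets whose groups separate was not counted.

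Pathway genes were called in this marrow contrast where the subunit genes were not. Of 7 IkB family genes 3 rose (median 0.58), with 186 higher and 79 lower among all 9932 genes: Nfkbie (1.64 ± 0.27, log2 ± SE), Bcl3, a nuclear IkB that binds p52 (1.495 ± 0.268), and Nfkbid (1.01 ± 0.19). Of 24 genes of the IKK list 2 rose, Tnfaip3 (1.20 ± 0.19) and Map3k8 (1.58 ± 0.31), and of 4 receptors 1 rose, Cd40 (1.80 ± 0.26). Of 19 targets 3 rose (median 0.48), Icam1 (1.18 ± 0.21), Cd44 (0.93 ± 0.17) and the chemokine gene Ccl5 (1.31 ± 0.26). The number of calls over all probe sets ran from 0 to 1245 as single marrow samples were left out, and was 14 without the intensity trend, against 501.

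Summed markers of other cells differed in the same contrast, apart from those of stroma, which overlapped. The summed signal of 7 myeloid markers was 45600 to 52000 in Artemis-deficient and 27500 to 39500 in RAG-1-deficient marrow, with all 7 at or above the array median on every array of both groups. That of 5 dendritic cell markers was 6070 to 8310 in Artemis-deficient and 1150 to 2160 in RAG-1-deficient marrow, with 4 of 5 at or above the median in both. That of 5 T and NK cell markers was 2940 to 3200 in Artemis-deficient and 1140 to 1520 in RAG-1-deficient marrow, with 3 and 2 of 5 at or above the median. Most of it was Nkg7, at 1980 to 2430 and 1040 to 1410. Cd4 read 392 to 1110 in Artemis-deficient and was empty in RAG-1-deficient marrow, while Cd8a overlapped, at 57.7 to 73.8 and 59.0 to 61.3. The summed signal of 4 stromal markers was 2350 to 4820 in Artemis-deficient and 2200 to 2480 in RAG-1-deficient marrow, where the groups overlapped. The 12 pre-B markers summed to 23500 to 32100 in Artemis-deficient and 41600 to 46800 in RAG-1-deficient marrow, and the 6 mature B and plasma cell markers to 1040 to 1220 in Artemis-deficient and 1770 to 1970 in RAG-1-deficient marrow. The pre-B sums include the targeted gene Rag1, at 1230 to 1800 and 5360 to 6680. The 3 erythroid markers summed to 575 to 887 in Artemis-deficient and 1250 to 1300 in RAG-1-deficient marrow. Their part in the marrow differences of Nfkb2, Relb and the pathway genes was not tested, and a change in the number of cells of a type and a change in RNA per cell cannot be told apart. In lines, all 5 dendritic markers lay below the array median on every array.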

How the data were processed

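RNA of 20 samples was hybridised to Affymetrix Mouse 430 v2 arrays and read with GeneChip Operating Software 1.2.0.037, per the labels' protocols. The deposited values are log10 signals, with the base inferred from the values and 14.7% of the cells empty, and the sources used here do not say how the authors scaled or filtered them. Each value was turned back to signal, 6 (lines) or 11 (marrow) was added, the 25th percentile of the set, and log2 was taken. Probe sets with at least 2 samples at their array's median were kept, 21936 in lines and 19520 in marrow, among them all 5 members. Nfkb2 1425902_a_at passed through the groups where it is high. Technical arrays of a line were averaged. limma 3.58.1 (lmFit, eBayes with an intensity trend) fitted 14 line samples in 1 model and 4 marrow samples in another, and p-values were Benjamini-Hochberg adjusted over all probe sets and called below 0.05. The limma fit of the lines was tested on simulated levels for 1 comparison. The other steps, the F test and the marrow fit were not tested in this way. The number of arrays limits the precision, and separate cultures are stated only as biological replicates.

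The members and gene lists were chosen with earlier results of these data known. Named genes were the members, up to 4 called genes per list and comparison with the smallest adjusted p, and the 3 genes most correlated with each member. Other pseudocounts, filters, normalizations, sample sets and left-out samples were tried. Protein sequences were not used here.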

Additional observations from a re-analysis of the deposited data

How the results depend on the processing

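Of 1039 alternative values of 45 log2 changes, 971 kept direction and side of the threshold, 31 lost a call, 8 gained one and 29 changed sign. The sign changes concerned 14 results, none of them called, of at most 0.44 in size. The counts of called member probe sets moved as follows. Artemis-deficient over RAG-2-deficient lines had 3 and fewer in 20 of 25 alternatives: 2 in 17, and 1 without the IkB-DN group in the fit, with the first technical arrays or without RAG-2-deficient sample 1, so that it ran from 1 to 3 as single samples were left out. Wild type over RAG-2-deficient lines had 1, and 0 with those 2 groups alone. Artemis- and ATM-deficient over RAG-2-deficient lines had 0, and 1 with the second technical arrays, and 0 to 1 leaving out samples. Artemis- and ATM-deficient over Artemis-deficient lines had 2, and 1 with those groups alone, and 2 to 3 leaving out samples. IkB-DN over Artemis-deficient lines had 3, and 2 in 6 of 24 alternatives, and the test over 5 groups had 3, and 2 in 5 of 23. Artemis-deficient over wild type lines had 0, and 1 at a pseudocount of 32. Artemis- and ATM-deficient over IkB-DN lines had 0, and 1 with a filter at 2 times the median or either single technical array, and 0 to 1 leaving out samples, with 1 without RAG-2-deficient sample 1. Fewer samples enter some of these fits, and otherwise the cause was not tested.

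Signs turned for Nfkb2 1425902_a_at in Artemis- and ATM-deficient over RAG-2-deficient lines at a pseudocount of 1 (-0.029), quantile normalization (-0.004), median centring (-0.002) and the second technical arrays (-0.223), and over IkB-DN lines with the second technical arrays (-0.141). They turned for Rel in IkB-DN over RAG-2-deficient lines at a pseudocount of 32 (-0.023) and median centring (-0.014). Leaving out single samples, Rel ranged from -0.297 to 0.447 in Artemis-deficient, -0.584 to 0.16 in wild type, -0.223 to 0.521 in Artemis- and ATM-deficient and -0.44 to 0.305 in IkB-DN over RAG-2-deficient lines. Rel ranged from -0.107 to 0.256 in Artemis- and ATM-deficient and -0.289 to 0.022 in IkB-DN over Artemis-deficient lines, and from -0.095 to 0.062 in marrow. Nfkb2 1425902_a_at ranged from -0.232 to 0.151 in Artemis- and ATM-deficient and -0.315 to 0.068 in IkB-DN over RAG-2-deficient lines. Nfkb2 1429128_x_at ranged from -0.125 to 0.086 in IkB-DN over RAG-2-deficient lines and -0.197 to 0.014 in Artemis- and ATM-deficient over IkB-DN lines. Rela ranged from -0.028 to 0.084 in Artemis-deficient over wild type and -0.01 to 0.209 in IkB-DN over Artemis-deficient lines.

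Calls over all probe sets moved by over 1.5 times in several settings: 252 in Artemis-deficient over RAG-2-deficient lines became 82 without the IkB-DN group, 182 in wild type over RAG-2-deficient lines became 27 and 110 in Artemis-deficient over wild type lines became 6 with 2 groups alone. In the same way 62 in Artemis- and ATM-deficient over Artemis-deficient lines became 22, 448 in IkB-DN over Artemis-deficient lines became 833, and 1464 in Artemis- and ATM-deficient over IkB-DN lines became 3272. Without the IkB-DN group, 152 in Artemis- and ATM-deficient over RAG-2-deficient lines became 47. Leaving out single samples, calls ran from 858 to 2467 in IkB-DN over RAG-2-deficient lines (2173 with all samples) and from 510 to 2405 in the test over 5 groups (2030 with all samples). They ran from 97 to 352 in Artemis-deficient, 74 to 319 in wild type and 47 to 202 in Artemis- and ATM-deficient over RAG-2-deficient lines, and from 59 to 1088 in IkB-DN, and 30 to 85 in Artemis- and ATM-deficient, over Artemis-deficient lines. They ran from 57 to 185 in Artemis-deficient over wild type and 357 to 1742 in Artemis- and ATM-deficient over IkB-DN lines. No paired analysis was possible because no number in the labels marks a shared animal, batch or day.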

Other observations

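The Nfkb2 probe set 1425902_a_at differed more between the technical arrays of Artemis- and ATM-deficient line 1, which read 27.2 and 6.24 with array medians of 27.5, than between the means of the 2 lines, 16.7 and 13.7.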
